A study of Drosophila melanogaster with 3 samples.

Results

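CG14100, Ugalt, Art3 and CG1888 are 4 of 18164 annotated genes on the 6 chromosome arms analysed, and 4 of the 13945 that code for protein. They were chosen by peak signal: each has the transcription start site (TSS) nearest to a promoter peak, one whose summit lies within 500 bp of a TSS, among the 10 peaks of highest signal in a list of Pointed binding sites. The same 10 peaks include 3 further promoter peaks, at ph-p, Chro and mRpL41, and 3 peaks away from promoters, nearest to cbt, Lk6 and CG11050. Those 6 appear below only for comparison. Signal and rank chose the 4 genes, so both are given as a description without a test.

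The sites come from chromatin immunoprecipitation with sequencing (ChIP-seq) on whole Drosophila melanogaster embryos aged 0 to 24 hours, with males and females pooled. All embryos were of the pnt-MiMIC-GFP line, in which an eGFP exon placed in an intron of pnt turns the gene's product into a Pointed-eGFP fusion. The fusion was precipitated with an anti-GFP antibody, per the sample descriptions, although another label names pnt as the antibody, and chromatin was sheared by sonication to 200 to 800 bp. There was 1 group of 3 biological replicates, with 1 control alignment for peak calling and no second condition. Since whole embryos were used, a peak does not say in which cells or at which hour the fusion was bound, and the fraction of cells behind it is unknown.

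Pointed is a transcription factor of the ETS family, which binds DNA around a GGAA core. It carries the output of the EGF receptor and of the Ras and MAP kinase cascade into the nucleus, where it switches on target genes in many embryonic tissues, among them the midline, trachea, muscle and glia. The ETS repressor Yan competes with it for the same kind of site. Ugalt encodes a UDP-galactose transporter, which carries an activated sugar into the secretory pathway for glycosylation. Art3 encodes an arginine methyltransferase. RefSeq lists the products of CG14100 and CG1888 as uncharacterised proteins, and no role is given to them here.

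The sequences under the peaks of CG14100, Ugalt and Art3 are shown because they hold the letters described below. Each line gives the part of the peak that lies outside every annotated transcript, read 5′ to 3′ along the strand of the gene, so that the gene starts just after the last base. Capitals mark GGAA, the core of ETS sites, CGATA, the core of the DNA replication-related element, and GGGCGTA, a word shared by several of these peaks, each on either strand (TTCC, TATCG and TACGCCC are their reverse complements). The sequences are from the RefSeq Release 6 genome (dm6), minus strand, at 3L:19590525-19590772 (248 bases), X:2703853-2704069 (217 bases) and 3R:15229409-15229664 (256 bases). The peak summit is at base 151 of the CG14100 line, base 182 of the Ugalt line and base 143 of the Art3 line.
CG14100: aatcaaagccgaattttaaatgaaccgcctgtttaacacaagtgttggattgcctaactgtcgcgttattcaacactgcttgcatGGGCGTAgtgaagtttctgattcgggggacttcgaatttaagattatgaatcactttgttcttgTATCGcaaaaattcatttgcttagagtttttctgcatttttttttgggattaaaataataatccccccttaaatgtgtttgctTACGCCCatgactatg
Ugalt: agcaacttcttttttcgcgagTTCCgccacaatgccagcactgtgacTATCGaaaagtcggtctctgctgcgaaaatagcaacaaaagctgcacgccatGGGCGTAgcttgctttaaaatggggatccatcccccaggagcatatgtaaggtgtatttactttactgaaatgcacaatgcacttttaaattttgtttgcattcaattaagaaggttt
Art3: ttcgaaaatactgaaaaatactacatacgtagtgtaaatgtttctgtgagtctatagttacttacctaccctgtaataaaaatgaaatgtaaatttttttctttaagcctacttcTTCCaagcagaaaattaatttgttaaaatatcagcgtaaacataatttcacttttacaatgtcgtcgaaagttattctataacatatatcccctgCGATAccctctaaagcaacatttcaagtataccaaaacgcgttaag

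The 4 promoter peaks stood far above most of the list they came from, which its depositors call optimal. The peak at CG14100 had a signal of 2989 and rank 1, that at Ugalt 2647 and rank 3, that at Art3 1800 and rank 7, and that at CG1888 1757 and rank 9. The whole list on dm6 held 3646 peaks with signals from 93.2 to 2989 and a median of 153.5, in units of unstated scale. Of these, 1779 were promoter peaks, with a median signal of 165.4. The deposited −log10 q does not order the 4 genes, since each had the highest value of 3.81, as did 3212 of the 3646 peaks. The 10th and 11th peaks, on either side of the limit that the selection used, had signals of 1700 (mRpL41) and 1689 (CenG1A, which encodes an ARF GTPase-activating protein). No gap in signal separates the members from the peaks that follow them.

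**Figure D1:**
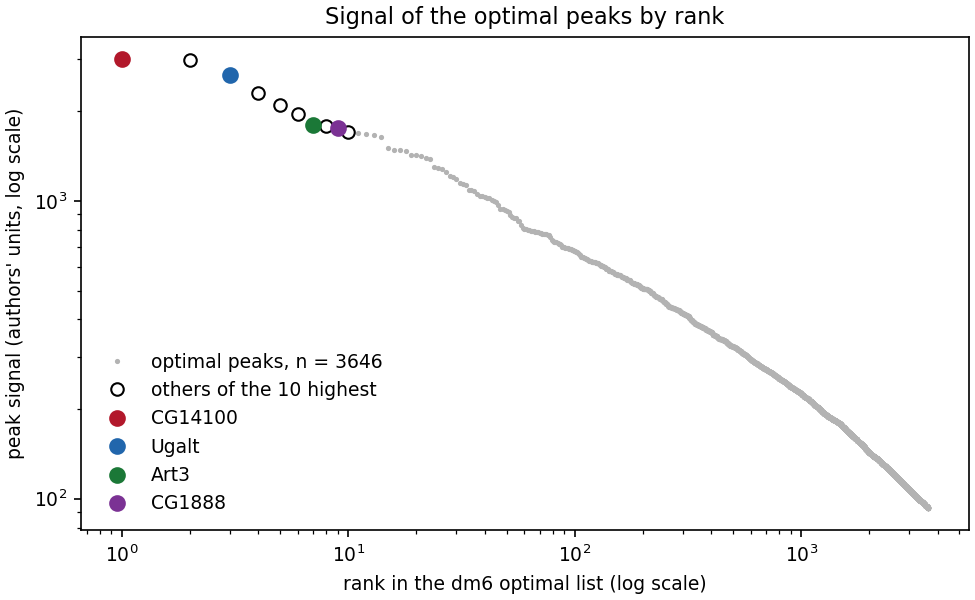
Signal of each of the 3646 optimal peaks (authors' units, log scale) against its rank (log scale), with the 4 genes in colour and the other 6 of the 10 highest peaks as open circles. The 4 coloured points, from 2989 for CG14100 to 1757 for CG1888, lie on the same falling curve as their neighbours.

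Each peak was also found near the top of all 3 replicate lists. Every replicate list held 30000 peaks, strong ones and background together, ranked by its own signal. The peak at CG14100 ranked 1, 2 and 2 in replicates 1, 2 and 3 (mean 1.67 ± 0.577, SD, n = 3), with signals of 1244, 994 and 763. The peak at Ugalt ranked 2, 3 and 3 (mean 2.67 ± 0.577, SD, n = 3), with signals of 941, 969 and 762. CG14100 was 1 rank ahead of Ugalt in every replicate, and both shared the top 3 ranks with the peak at cbt, which encodes a zinc finger transcription factor and ranked 3, 1 and 1.

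Art3 and CG1888 ranked lower and close to each other. The peak at CG11050, between them in the optimal list, ranked 10, 16 and 6 in replicates 1, 2 and 3. The peak at Art3 ranked 7, 12 and 11 in replicates 1, 2 and 3 (mean 10 ± 2.65, SD, n = 3), with signals of 713, 590 and 509. The peak at CG1888 ranked 11, 13 and 8 (mean 10.7 ± 2.52, SD, n = 3), with signals of 619, 587 and 573. Art3 was ahead in replicates 1 and 2 and CG1888 in replicate 3, so their order is not separated from the spread between replicates, whereas both ranked below CG14100 and Ugalt in each replicate. For comparison, the peak at mRpL41, a mitochondrial ribosomal protein gene, ranked 6, 24 and 12. The optimal list was made from the same 3 libraries, so high replicate ranks of its strongest peaks are no independent evidence. Signals of different replicate lists are on each list's own scale and were not compared.

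**Figure D2:**
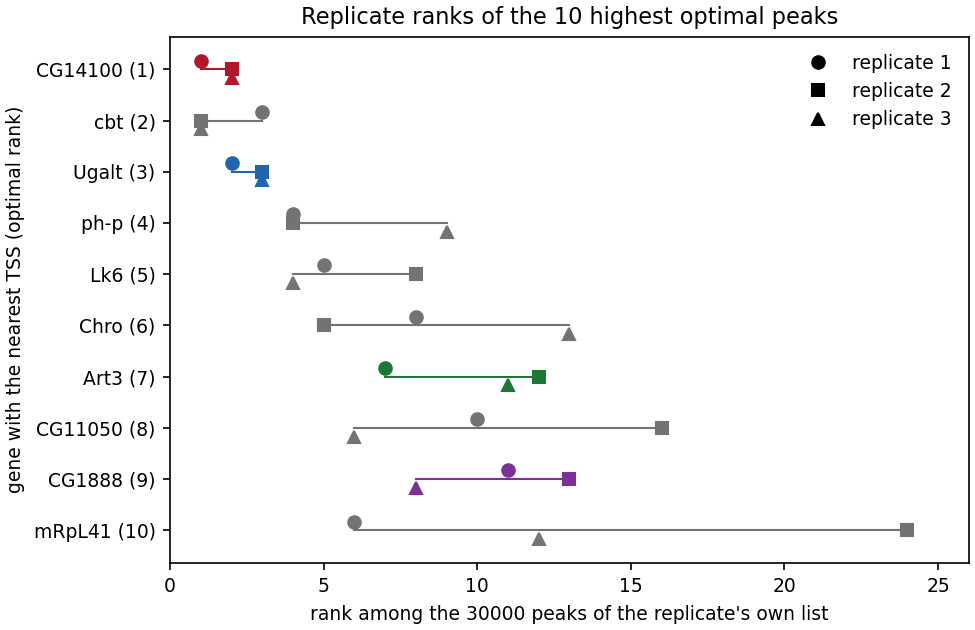
Rank of the 10 highest optimal peaks in each replicate's own list of 30000 peaks (horizontal axis), with 1 row per peak named by its nearest gene and its optimal rank. Circles, squares and triangles are replicates 1, 2 and 3, joined by a line. The 4 coloured rows stay at rank 13 or better in every replicate, as do those of cbt, ph-p, Lk6 and Chro, while those of CG11050 and mRpL41 do not.

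The genes with the most similar ranks were looked up among all promoter peaks, by the sum over the 3 replicates of the absolute differences in log10 rank. The nearest to CG14100 was Ugalt (0.653), followed by ph-p, a Polycomb group gene (1.56), and Chro, a chromodomain protein gene (2.11). Ugalt had CG14100 (0.653), ph-p (0.903) and Chro (1.46) as its nearest. Art3 was closest to CG1888 (0.369), mRpL41 (0.406) and Chro (0.511). CG1888 was closest to PNPase (0.334), which encodes polynucleotide phosphorylase, then to Art3 (0.369) and CenG1A (0.584). The measure covers 3 ranks a peak and follows from the same selection by signal.

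The summits lay upstream of the TSS in all 4 genes, at positions that varied by 5 to 16 bp between replicates. The summit at CG14100 was 98 bp upstream in the optimal list, and 89, 100 and 99 bp upstream in replicates 1, 2 and 3 (mean 96 ± 6.08 bp, SD, n = 3). That at Ugalt was 36 bp upstream, and 49, 42 and 36 bp in the replicates (mean 42.3 ± 6.51 bp, SD, n = 3). The replicate 1 summit lay 9 bp from the optimal one at CG14100 and 13 bp from it at Ugalt, farther than the other replicates. That at Art3 was 114 bp upstream, and 112, 114 and 117 bp in the replicates (mean 114 ± 2.52 bp, SD, n = 3). That at CG1888 was 228 bp upstream of its nearest TSS, and 224, 228 and 240 bp in the replicates (mean 231 ± 8.33 bp, SD, n = 3).

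The order of the distances, Ugalt closest, then CG14100, Art3 and CG1888, was the same in every replicate. The summits of the 3 replicates spanned 11 bp at CG14100, 13 bp at Ugalt, 5 bp at Art3 and 16 bp at CG1888. Over the 1618 promoter peaks found in all 3 replicate lists, that span had a median of 49 bp, a 10th percentile of 13 bp and a 90th of 155 bp. The other 6 of the 10 highest peaks had spans of 5 to 18 bp, so narrow spans are not particular to the 4 genes. The typical distance to a TSS, a median of 118 bp over all 1779 promoter peaks, lies within the range of the 4. A summit upstream of its nearest TSS was found in 4 of 4 members and in 81.7% of all promoter peaks. The 4 genes are all on the minus strand, as was the nearest TSS of 53.3% of promoter peaks, and the other 3 promoter peaks among the 10 highest were at minus-strand genes too. With 4 genes chosen by signal, neither count was tested.

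**Figure D3:**
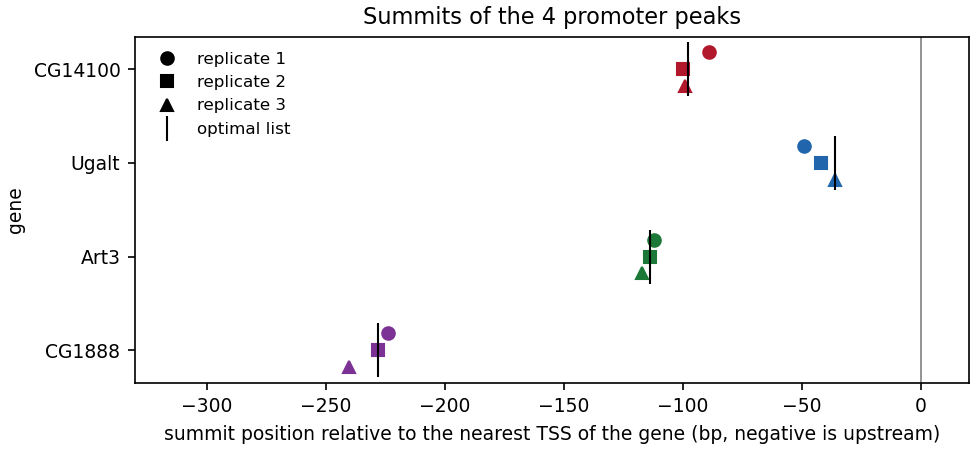
Position of the peak summit relative to the nearest TSS of each gene (bp, negative is upstream), in the 3 replicate lists (symbols) and in the optimal list (vertical strokes). The replicate summits of a gene span 5 to 16 bp, less than the distance between any gene's optimal summit and the TSS at 0.

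CG14100 (FBgn0036889, 3L:19589072-19590524) is a compact gene of 1453 bp with 1 annotated transcript. Its peak (3L:19590433-19590804, summit 19590622) covers the 248 bp between CG14100 and the 3′ end of ash1, a histone methyltransferase gene transcribed in the same direction. The peak also takes in 46 bp of the 5′ UTR of CG14100, 46 bp of its coding sequence and 32 bp of the 3′ UTR of ash1. The end of ash1 is 151 bp from the summit but its TSS is 8133 bp away, so CG14100 alone starts within 500 bp. At its other end CG14100 overlaps CG9330, on the opposite strand, by 40 bp. The next optimal summit on the arm was 21659 bp away, against a median gap of 5810 bp over the whole list.

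Ugalt (FBgn0024994, X:2701124-2703852, 2729 bp) has 3 transcripts from 2 start sites. The summit (2703888, in the peak X:2703704-2704069) was 36 bp upstream of the outer TSS, used by 1 transcript, and 143 bp upstream of the inner TSS, used by the other 2. The peak holds 217 bp outside transcripts and 149 bp of 5′ UTR of Ugalt. The divergent gene eIF2Bbeta, which encodes a translation initiation factor subunit, starts 683 bp from the summit, beyond the 500 bp used here for a shared promoter. Lint-O lies 90 bp past the 3′ end of Ugalt. No other optimal summit was nearer than 39408 bp, the most isolated position of the 4.

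Art3 (FBgn0038306, 3R:15227605-15229408, 1804 bp) has 2 transcripts from 1 TSS, and it was the only one of the 4 with a second gene starting within 500 bp of the summit. The divergent gene mRpS10, for a mitochondrial ribosomal protein, begins 256 bp from Art3, and the summit (15229522) sits 114 bp from the TSS of Art3 and 143 bp from that of mRpS10. Art3 is thus only slightly the nearer of the 2 genes. The peak (3R:15229344-15229713) covers all 256 bp between the genes, 65 bp of 5′ UTR of Art3 and 49 bp of 5′ UTR of mRpS10. Among all promoter peaks, 41.3% had TSSs of at least 2 genes within 500 bp and 38.3% had TSSs on both strands, against 1 of the 4 members on either count. Caf1-55, which encodes a histone-binding chromatin assembly protein, ends 40 bp from the 3′ end of Art3, and CG34316 and the antisense RNA gene asRNA:CR43471 follow mRpS10. The next optimal summit was 10431 bp away.

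CG1888 (FBgn0033421, 2R:9541947-9548135) is the longest of the 4 genes at 6189 bp, with 2 transcripts from each of 2 start sites. Its peak (2R:9547012-9547371, summit 9547186) is 228 bp upstream of the inner TSS and 949 bp downstream of the outer one. All 360 bp of the peak fall in 5′ UTR sequence of the longer transcripts, so it is inside the gene as well as upstream of a promoter, whereas the other 3 summits were outside any transcript. No other gene starts within 500 bp, and brp, which encodes a protein of the presynaptic active zone, ends 381 bp beyond the gene. CG1888 was also the only one of the 4 with another optimal summit close by, at 656 bp.

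That neighbour was a weak peak inside CG1888 (2R:9546338-9546721, summit 9546530), 428 bp downstream of the inner TSS. It ranked 3436 of 3646 with a signal of 97.2, against 1757 for the promoter peak. It was listed in replicate 1 (rank 2608, signal 42.3) and in replicate 3 (rank 2776, signal 43.8) and not in replicate 2. CG1888 was thus 1 of the 4 members with at least 2 optimal summits in its span or within 2 kb, a state found in 8.1% of protein-coding genes. Every member had 1 such summit by selection, and of the 4103 protein-coding genes with at least 1, 1129 had 2 or more. At least 1 such summit was present at 4 of 4 members, against 29.4% of protein-coding genes, and a summit within 500 bp of the gene's own TSS at 4 of 4, against 15.8%. The last 2 counts follow from the way the genes were chosen.

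Outside the promoter peaks, the surroundings of the 4 genes held little that recurred. Their spans with 2 kb on each side come to 28.175 kb and contained 11 peaks of the pooled relaxed list, the 4 promoter peaks and 7 weak ones. Of the 7 weak peaks, 4 were overlapped in 1 replicate list, 3 in 2 lists and 0 in all 3. The replicate lists together held 26 weak peaks in these windows, 6 in replicate 1, 2 in replicate 2 and 18 in replicate 3. With the promoter peaks included, the density was 0.355, 0.213 and 0.781 peaks per kb in replicates 1, 2 and 3, where each whole list averaged 0.224. The windows hold the 4 promoter peaks by selection, which raises these densities against that average. Those 4 are only part of the 22 peaks of replicate 3, where 18 were weak, 10 of them at CG1888 and 5 at Art3. Replicate 3 had the most weak peaks at Art3 and CG1888, the cause of which was not tested.

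The weak peaks were placed differently at each gene. At CG14100, the pooled weak peak (rank 16324, signal 38.8) was nearest to the TSS of CG9330, at 1101 bp, and matched a replicate 3 peak at rank 7429. At Ugalt, the pooled weak peak ranked 20547 (signal 35.0) and was 1338 bp downstream of the inner TSS of the gene, and replicate 1 alone listed a peak at rank 12637 whose summit was 78 bp from the TSS of eIF2Bbeta. At Art3, the better of 2 pooled weak peaks (rank 10505, signal 47.0) was 330 bp from the TSS of CG34316 and was overlapped in replicates 2 and 3 at ranks 16484 and 11893. CG1888 had 3 pooled weak peaks, the most of the 4 genes. Besides the one described above, they ranked 6394 (signal 61.4) and 8879 (signal 51.1). The former was overlapped in replicates 1 and 3, at ranks 23285 and 4716, and the latter in replicate 3 alone, at rank 5337. None of these ranks is near those of the promoter peaks, all 13 or better.

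**Figure D4:**
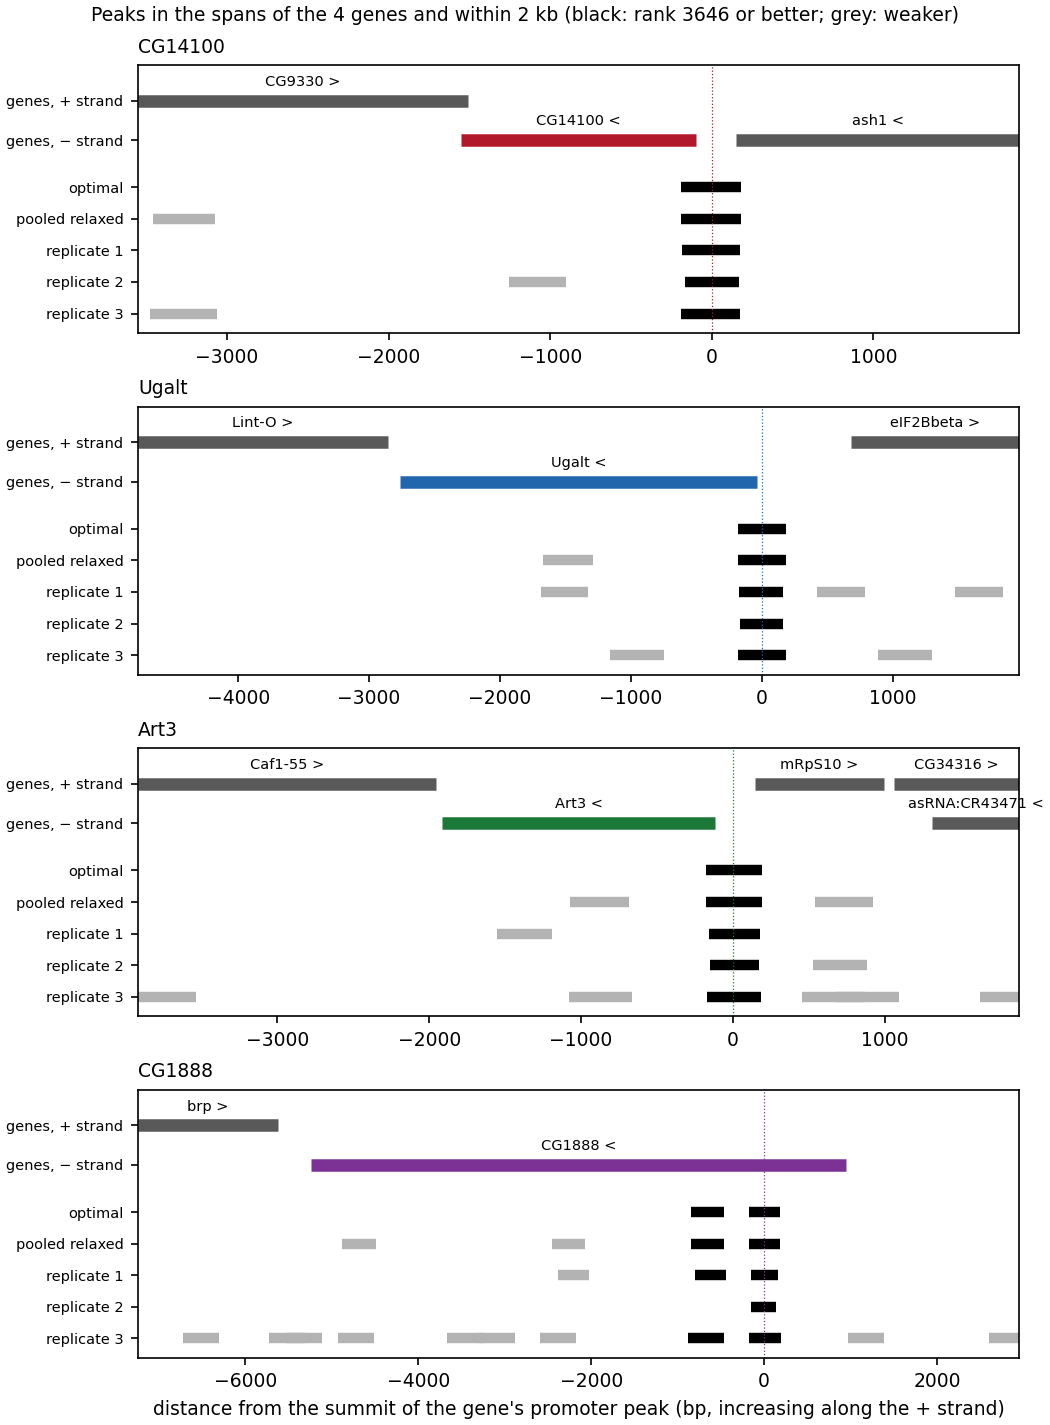
Genes (top rows of each panel, by strand) and deposited peaks (optimal, pooled relaxed and the 3 replicate lists) in the span of each of the 4 genes and within 2 kb, against the distance from the promoter summit (bp, increasing along the plus strand). Black bars rank 3646 or better in their list and grey bars rank lower, and CG1888 is the only gene with a second black bar, absent from replicate 2.

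The 4 peaks were narrower than most. Their widths were 372 bp for CG14100, 366 bp for Ugalt, 370 bp for Art3 and 360 bp for CG1888. In the whole optimal list 80.6% of peaks had the same width of 384 bp and 19.0% were narrower, while 87 of the 100 highest peaks were narrower. In the replicate lists, where 98.6 to 98.9% of peaks had the modal width of 364, 356 or 416 bp, the member peaks were 358, 338 and 366 bp wide at CG14100, 342, 326 and 366 bp at Ugalt, 341, 321 and 359 bp at Art3, and 313, 295 and 367 bp at CG1888. All 12 values were below the modal width of their list.

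Base composition differed among the 4. GC content over the whole peak was 34.4% at CG14100, 34.9% at Art3, 41.1% at CG1888 and 49.2% at Ugalt. The median over all promoter peaks was 37.8%, with quartiles of 34.5% and 41.4%, so CG14100 was just under the lower quartile, Art3 and CG1888 were between the quartiles, and Ugalt was above the upper one.

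For DNA patterns, 12 short consensus words were searched on both strands within 100 bp of each summit, and 10 of them occurred at 0 of the 4 members. The ETS word CCGGAA was among the 10 and occurred at 3.99% of all promoter peaks. The longer ETS word ACCGGAA, which contains it, occurred at 1.24% of them. The ETS word GGAAGT occurred at 6.30%, so a count of 0 among 4 is close to the background for all 3 words. The bare ETS core GGAA was present at 2 members, Art3 (26 bp from the summit) and CG1888 (28 bp), and at 75% of promoter peaks. It is contained in the 3 longer ETS words. Over the whole peak, Art3 had 3 matches to GGAA, Ugalt 1 (159 bp from the summit), CG1888 1 and CG14100 none, where 88.4% of promoter peaks had at least 1. The highest peak of the list thus had no GGAA in its 372 bp on either strand, which says only that the letters are not in that window and nothing about whether Pointed bound there. Within 250 bp of the summit, a window wider than the peak, GGAA was present at 4 of 4 members, with 3 matches at CG14100, and at 97.5% of promoter peaks.

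The core of the DNA replication-related element, CGATA, was present within 100 bp at CG14100 and Art3, against 37.5% of promoter peaks. This element is bound by the factors DREF and BEAF-32 at many housekeeping promoters. At CG14100 its centre was 1 bp from the summit, which is the TATCG in capitals in the middle of the printed line. Ugalt had 2 copies further out, at 109 and 132 bp from the summit, and CG1888 had none in its peak. The full element TATCGATA, which contains CGATA, was at 0 of 4 members and at 6.30% of promoter peaks. The words GGTCACAC (3.60% of promoter peaks), GAGAG (21.6%), CAGCTG (12%), TGAGTCA (2.08%), CAGGTA (3.60%) and TATAAA (31.1%) were likewise at 0 of 4.

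Letters shared between the member peaks were then listed, a step added after the data had been seen. CG14100 and Ugalt shared the 11 bases CATGGGCGTAG, in the direction of the gene in both, centred 63 bp from the summit of CG14100 and 80 bp from that of Ugalt. The run was found in 11 optimal peaks, of which 5 were among the 100 highest and 9 were at promoters. Each of these counts includes the peaks of CG14100 and Ugalt, from which the run was taken. Art3 and CG14100 shared the 12 bases ATTTCACTTTTA, found in 3 optimal peaks, their own included. The 7-base core of the first run, GGGCGTA, occurred in 3 of the 4 member peaks, with 2 copies at CG14100 (centred at −13 and −160 bp from the TSS, on opposite strands), 1 at Ugalt (−115 bp) and 1 at CG1888 (−167 bp). It was absent from the peak of Art3 and from those of the other 6 of the 10 highest.

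Since the word was picked from the members' own peaks, their count supports nothing. In peaks not used to pick it, GGGCGTA was present in 11 of the 90 at ranks 11 to 100 (12.2%, 95% Clopper-Pearson interval 6.26 to 20.8) and in 69 of the 3546 at ranks 101 to 3646 (1.95%, 1.52 to 2.46). Within 100 bp of the summit the counts were 8 of 90 (8.89%) and 47 of 3546 (1.33%), and among promoter peaks alone 7 of 57 (12.3%) and 25 of 1715 (1.46%). Of all 23581 annotated TSS windows of the same length, 0.818% held it. The intervals cover counting error only, overlapping or related sequences were not removed, and no factor was assigned to the word. The 11 peaks at ranks 11 to 100 were nearest to CG31145, px, CG8360, Tcs5, amon, CG16753, dnc, Hpf1, PTPMT1, Adck1 and CG5611, and all but that at CG16753 were promoter peaks.

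**Figure D5:**
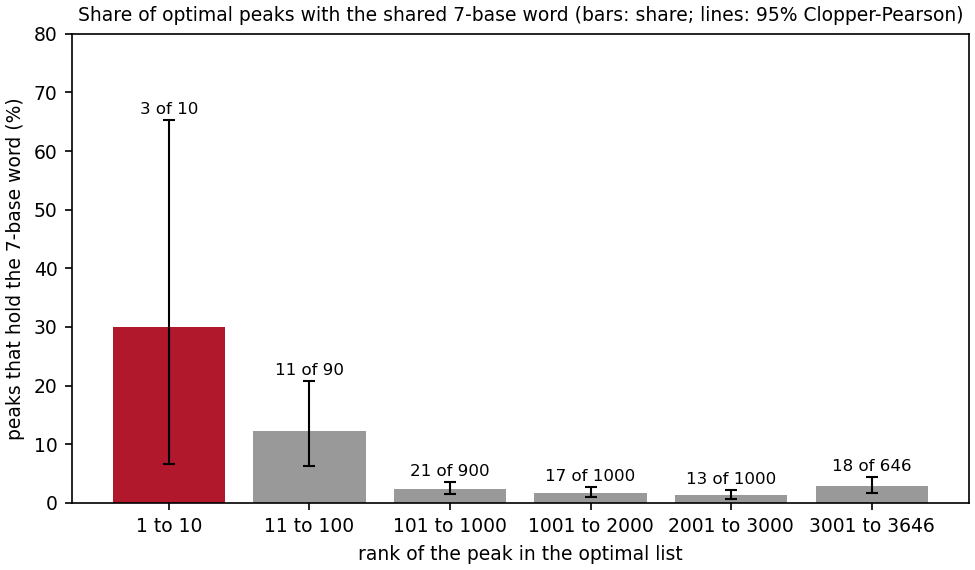
Share of optimal peaks that hold the 7-base word GGGCGTA on either strand (%), by rank of the peak, with 95% Clopper-Pearson intervals and counts above the bars. The first bar (3 of 10) contains the peaks the word was picked from, the second is 12.2%, and the 4 bars after it lie between 1.30% and 2.79%.

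Relatives of Art3 and Ugalt were looked at from lists of family members. Of 9 protein arginine methyltransferase genes, 4 had an optimal summit in the span or within 2 kb, beside 29.4% of all protein-coding genes, a count to which Art3 itself contributes by selection. A summit within 500 bp of the gene's own TSS was present at 2 of the 9, beside 15.8% of protein-coding genes, namely the selected Art3 (signal 1800) and Art4, the fly relative of mammalian CARM1 (rank 3045, signal 106, 57 bp from the TSS). The peaks near Art2 and Art7 were closer to the TSSs of tutl and CG3085, and Art1, csul, Art6, Art8 and Art9 had none. No peak at the other genes of the family ranked better than 480.

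Of 9 listed nucleotide-sugar and related transporter genes, 8 were found in the annotation, since RefSeq gives Csat as another name of Ugalt. An optimal summit lay in the span or within 2 kb of 4 of the 8, beside 29.4% of protein-coding genes, and within 500 bp of the gene's own TSS at 3, beside 15.8%. Ugalt (signal 2647) is among them by selection. The others were senju, with 2 summits, and meigo (rank 3366, signal 98.4, 160 bp from its TSS). The stronger summit at senju (rank 941, signal 232) was nearer to the TSS of eIF3h. Neither summit at senju had the TSS of senju as its nearest. The gene frc, which supplies nucleotide sugars to the glycosylation of Notch, had 2 summits within 2 kb, the stronger at rank 74 (signal 775) and nearest to CG32176. None was listed at sll, Papst2, Efr or nac. Without a count of reads, a gene with no listed peak is not shown to be unbound.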

How the data were processed

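Anti-GFP ChIP-seq peak lists of 3 biological replicates of pnt-eGFP embryos were analysed on build dm6. Per the deposited file notes, a relaxed list was called from each replicate's alignment against 1 control and from the pooled alignments, and the optimal list was derived from these. It was exactly the 3646 of 23148 pooled peaks of highest signal. No aligner, peak caller or threshold is given in the sources used here. The signal deposited for each peak, of unstated scale, ranked peaks within a list. The deposited −log10 q-value served only for an alternative ranking. Positions are printed 1-based. Alignments and signal tracks were not analysed here, so the depth of each library is unknown.

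The 4 genes, the family lists and the comparisons were chosen with earlier results of these data known. No p-value was computed, since measured signal selected the genes. Each optimal peak was matched to the replicate peak of highest signal that overlapped it by at least 1 bp. Distances run from the summit to the nearest TSS of the Ensembl release 115 annotation on 6 arms, without transposable elements. Values are mean ± SD over 3 replicates. By rule, the text names the members, genes starting within 500 bp of a member's summit, genes overlapping a member or starting within 2 kb of its TSS, the genes of the other 6 of the 10 highest peaks and of the 11th, family genes with a promoter peak, and the 3 promoter peaks most alike in replicate rank. Other neighbours, other family genes and genes whose peaks hold the shared word were named after their values were seen. Counting steps were tested on simulated data. Python 3.11.15, pandas 2.3.3, numpy 2.4.6, scipy 1.17.1 and matplotlib 3.10.9 were used.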

Additional observations from a re-analysis of the deposited data

How the results depend on the processing

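Of 113 values recomputed under other settings for 35 results, 90 stayed within the spread between replicates or, for a count, within 1.5 times the reported one, and 23 moved further. The 90 include 4 counts that changed: CG1888 had 3 optimal peaks within 5 kb in place of 2, and over the whole peak GGAA was at 3 members, CGATA at 3 members and 3 patterns were at 1 or more members, each in place of 2. Over the whole peak, GGAA was at 88.4% of all promoter peaks and CGATA at 50.7%. Leaving out each replicate in turn moved no mean rank and no mean distance beyond the spread between replicates. With 3 replicates it could not have done so, because the mean of the other values cannot shift by more than the spread. These values are among the 90 and say nothing about stability. Ranking by −log10 q in place of signal gave a mean replicate rank of 1279.5 for each of the 4 genes, because 2853, 961 and 3860 peaks of replicates 1, 2 and 3 tied at the highest value. In the pooled relaxed list the number of peaks in the span or within 2 kb was 2 at CG14100, 2 at Ugalt, 3 at Art3 and 4 at CG1888, and in the upper part of the optimal list, above its median signal, it was 1 at CG1888. With TSSs counted within 1000 bp, 2 genes shared the promoter of Ugalt, and within 200 bp 0 genes were counted at CG1888. The midpoint of the Art3 peak was 120.5 bp from its TSS, and the CG1888 summit was 949 bp from the outermost start of the gene. Widening the search to 250 bp gave 5 of the 12 patterns at 1 or more members, where 100 bp gave 2. GGAA and CGATA were then at 4 of 4 members each, beside 97.5% and 61.9% of all promoter peaks. Assigning a peak to its nearest TSS alone left 2 arginine methyltransferase genes and 2 transporter genes with a peak, in place of 4 and 4. Of the 36 counts of members that hold a given pattern, 7 moved beyond 1.5 times. Depth is unknown, so absence from a list and weak ranks cannot be set against read counts.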

Other observations

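A second optimal list, on build dm3, was deposited for the same libraries and held 3543 peaks, of which 7 were off the 6 arms analysed. Its 2 highest peaks, with signals of 7844 and 3308, were on Uextra, a collection of sequence not placed on an arm. The ranks 3 to 12 then followed with the arms and nearly the signals of ranks 1 to 10 on dm6, among them 2989 on 3L, 2647 on X, 1800 on 3R and 1757 on 2R, the dm6 signals of CG14100, Ugalt, Art3 and CG1888. No coordinates were converted between builds, so these are matches of arm and signal and not of position.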
